A study of Mus musculus with 24 samples.

Results

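The glucocorticoid receptor gene Nr3c1 and 9 genes that glucocorticoids are known to induce (Fkbp5, Tsc22d3, Zbtb16, Klf9, Ddit4, Sgk1, Map3k6, Arrdc2 and Glul) were followed in skeletal muscle of mice after a heat shock or after inhibition of HSP90. These 10 genes were taken by symbol from a table of 18669 genes, all 10 were in the table, and all 10 passed the filter on low counts, which kept 13754 genes. They were selected on measured values, namely that in these same libraries HS had raised and HSP990 had lowered most of them, so that their responses to the treatments are given as a description with no test. Differences between R6/2 and wild type mice without treatment and between the responses of the genotypes were tested. They share mice with the responses behind the choice, which favours low control and high vehicle levels, so they are not independent of it. For the same reason Hsf1-/- against wild type control mice, and vehicle against control mice, are given as values, and nothing is read from tests of the members there.

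The study asked how muscle of a living mammal answers a heat shock, whether this answer is impaired in a mouse model of Huntington's disease and which genes need the heat shock factor HSF1. RNA was sequenced from quadriceps femoris muscle of 24 mice, 2 in each of 12 groups, 4 h after treatment. All mice had the same CBA x C57BL/6 F1 background. The genotypes were wild type, R6/2 (a transgene that expresses exon 1 of mutant human HTT) and Hsf1-/- (homozygous loss of the transcription factor HSF1). In the heat experiment mice were put under isoflurane anaesthesia and held for 15 min at a core temperature of 41.5 °C (HS) or for 21 min at 36.9 °C (control). In the drug experiment they received HSP990, an inhibitor of HSP90, at 12 mg/kg by mouth, or only the methyl cellulose and saline that carried it (vehicle). Wild type and R6/2 mice were 12 weeks old, while Hsf1-/- mice were 10 weeks old in the heat experiment and 8 weeks old in the drug experiment, so that in comparisons with Hsf1-/- mice genotype and age cannot be told apart.

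Glucocorticoids are steroid hormones of the adrenal gland, which releases more of them under stress and in a daily rhythm. Their receptor rests in the cytoplasm in a complex with HSP90, HSP70 and cochaperones, which hold it in the shape that binds the hormone. Once bound, it moves to the nucleus, binds DNA at glucocorticoid response elements and raises genes that, in muscle, slow growth, favour the use of fat over glucose and promote the breakdown of protein.

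Library totals were 22450177 to 46599238 counts, and levels are given as CPM (the count of a gene relative to its library total, after TMM scaling, which corrects the totals for a few very abundant genes). Adjusted p-values are those of the quasi-likelihood test of edgeR, with the adjustment of Benjamini and Hochberg over all genes tested. Hsf1 itself was at 60.8 and 63.9 CPM in wild type control mice and at 27.1 and 23.1 CPM in Hsf1-/- control mice, a difference of -1.31 ± 0.129 (log2, SE, n = 2 and 2, adjusted p = 4.2e-05), so reads from the gene were reduced and not absent. The summed level of 4 Y-linked genes was at most 0.0881 CPM in the control and HS mice of the wild type and R6/2 genotypes and 162.6 to 229.9 CPM in every other mouse. Sex therefore changes together with each comparison of vehicle and control mice in wild type and R6/2 mice, and of Hsf1-/- and wild type mice in the heat experiment, but not with a treatment within a genotype. The summed level of 8 myofibre markers was 43010 to 90980 CPM in R6/2 mice and 198500 to 268300 CPM in all other mice. In such bulk tissue, fewer cells of a type and less RNA per cell cannot be told apart.

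Where the receptor can bind was looked at in the RefSeq promoter windows of the mouse genome (GRCm38.p6), each from 250 bases before to 50 after a start site. The palindromic glucocorticoid response element was searched as GNACA and TGTNC with NNN between them, on both strands, and it was present in 0.47% of all 32851 windows. Of the 9 targets, 8 had windows, 15 in all because some genes have several starts, and 2 of these 15 held the palindrome. Zbtb16 had none. The 250 bases before the start in these 2 windows are shown because they hold the receptor's own kind of site, with palindromes and half-sites (AGAACA or its complement TGTTCT) in capitals.

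Sgk1 (chr10:21993640-21993889, plus strand): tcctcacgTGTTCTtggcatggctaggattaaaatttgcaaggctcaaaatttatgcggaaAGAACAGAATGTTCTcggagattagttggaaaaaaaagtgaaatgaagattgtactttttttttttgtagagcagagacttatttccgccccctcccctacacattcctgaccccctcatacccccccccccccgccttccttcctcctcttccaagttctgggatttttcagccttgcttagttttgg
Map3k6 (chr4:133240568-133240817, plus strand): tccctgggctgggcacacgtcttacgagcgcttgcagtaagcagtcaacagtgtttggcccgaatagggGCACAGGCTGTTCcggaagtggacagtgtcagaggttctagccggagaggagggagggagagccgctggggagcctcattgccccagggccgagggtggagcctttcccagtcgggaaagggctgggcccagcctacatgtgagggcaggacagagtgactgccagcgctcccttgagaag

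The palindrome began 188 bases before the start of Sgk1 (GAACAGAATGTTC), in 1 of its 6 windows, where half-sites overlap it on either side, and 181 bases before that of Map3k6 (GCACAGGCTGTTC). The half-site was in 18.97% of all windows and in 4 of the 15 windows of the targets, at starts of Sgk1 and Tsc22d3. The E-box that clock factors bind (CACGTG) was in 7.15% of all windows and in 2 of the 15. The heat shock element that HSF1 binds, searched as GAA, TTC and GAA in a row with NN between them, was in 0.6% of all windows and in 0 of the 15 windows of the targets. Such matches are letters in a short window and do not show where a factor was bound.

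The receptor gene itself showed small differences. Nr3c1 (gene 14815, chr18:39570199-39650955 in mm9, minus strand) was at 222 and 212 CPM in wild type control mice and at 159 and 192 CPM after HS. The same gene was at 198.5 and 164 CPM in wild type vehicle mice and at 225 and 198 CPM after HSP990. The HS difference was -0.31 ± 0.161 in wild type, -0.07 ± 0.161 in R6/2 and 0.05 ± 0.161 in Hsf1-/- mice (log2 fold change ± SE, 2 mice against 2), and the HSP990 difference was 0.22 ± 0.161, 0.36 ± 0.161 and 0.17 ± 0.161. Over all 24 mice the level of Nr3c1 stayed between 142 and 259 CPM. Between genotypes Nr3c1 did not pass the test in control or vehicle mice (log2 differences of -0.27 to 0.06, adjusted p of 0.3 to 0.99 (edgeR)), with 95% intervals that reached from -0.61 to 0.40 over these 4 comparisons.

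The targets, in contrast, moved together and in opposite directions under the treatments. Each of the 9 was higher after HS in each genotype, with a median log2 fold change of 1.57 in wild type, 1.16 in R6/2 and 0.4 in Hsf1-/- mice, against -0.01 to 0 for all genes tested. Each was lower after HSP990, with medians of -1.66, -1.64 and -1.03, against 0 to 0.01 for all genes. The treated mice lay beyond both mice of the comparison group in 9, 7 and 7 targets after HS, where 23.1%, 15.1% and 20.8% of all genes did so in the same direction in wild type, R6/2 and Hsf1-/- mice. After HSP990 they did so in 9, 9 and 7 targets, where 24.7%, 17.9% and 19.4% of all genes did. These counts restate how the genes were chosen. Some medians rested on 1 control or vehicle mouse: without control replicate 2 of R6/2 the HS median was 0.58, without control replicate 2 or 1 of Hsf1-/- it was 0.19 or 0.62, and without vehicle replicate 2 of Hsf1-/- the HSP990 median was -0.6.

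**Figure D1:**
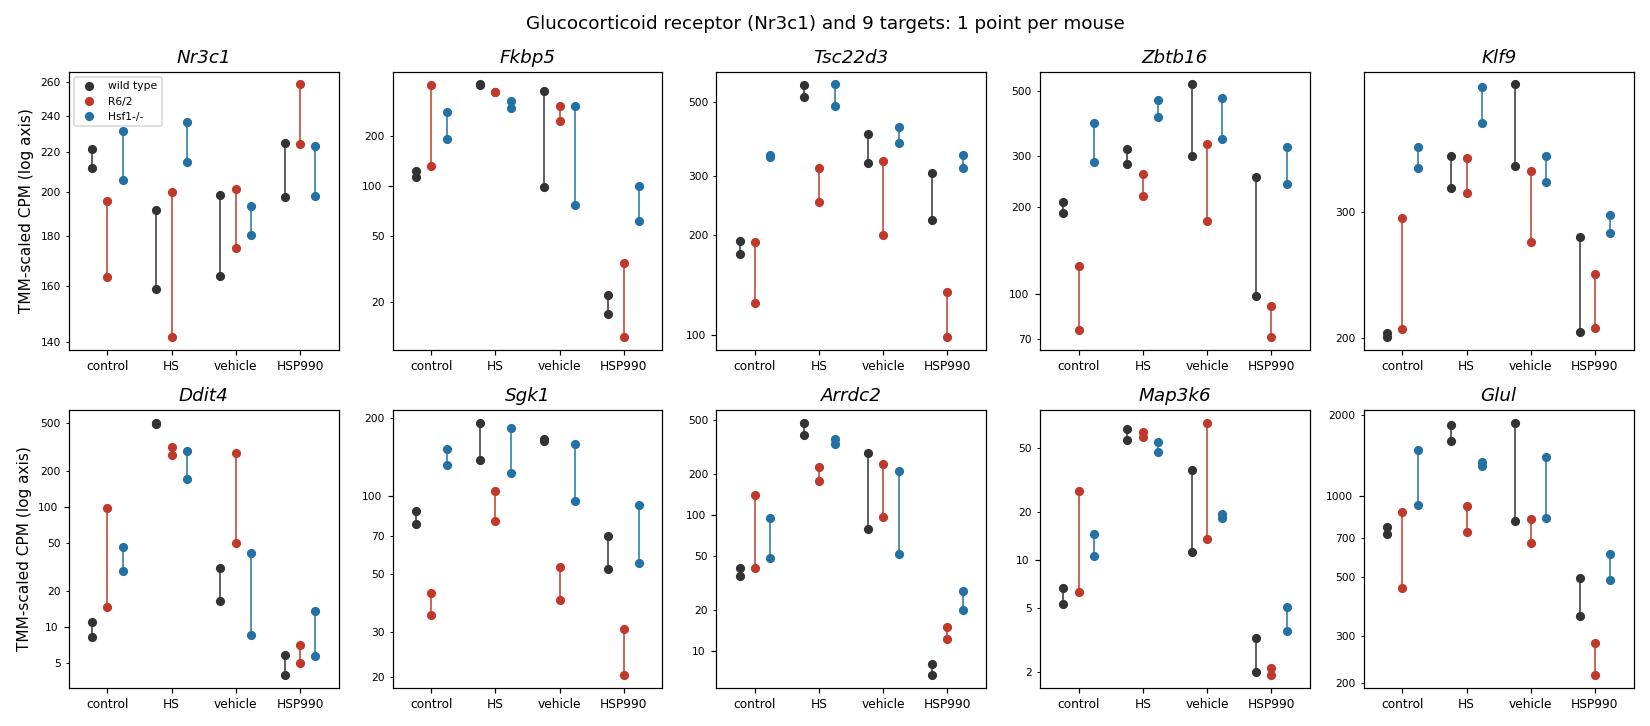
Level of Nr3c1 and of each of the 9 targets in every mouse (TMM-scaled CPM on a log axis), by treatment and with wild type in black, R6/2 in red and Hsf1-/- in blue; lines join the 2 mice of a group. Nr3c1 stays between 142 and 259 CPM, whereas Arrdc2 and Ddit4 span a far wider range, in wild type mice highest after HS and lowest after HSP990.

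Fkbp5 encodes FKBP51, a cochaperone that joins the complex of HSP90 and receptor and lowers its affinity for the hormone, so that it acts as feedback (gene 14229, chr17:28536040-28654469 in mm9, minus strand). In wild type mice it was at 114 and 122 CPM in control, 404 and 405 in HS, 98.4 and 372 in vehicle and 22.2 and 17.1 in HSP990 mice. The HS mice thus nearly coincided, while 1 vehicle mouse was at the level of the HS mice and the other at that of the controls. R6/2 mice were at 402 and 132 CPM in control, 364 and 367 in HS, 301 and 246 in vehicle and 12.4 and 34.4 in HSP990 groups. Hsf1-/- mice were at 278 and 189.9 CPM in control, 293 and 323.5 in HS, 76.4 and 299 in vehicle and 61.2 and 99.1 in HSP990 groups. After HS, then, all 6 mice of the 3 genotypes lay between 293 and 405 CPM, and the fold changes of 3.43 in wild type, 1.37 in R6/2 and 1.32 in Hsf1-/- mice went with control levels that differed. After HSP990 the level was 12.0-fold lower in wild type, 11.7-fold lower in R6/2 and 2.35-fold lower in Hsf1-/- mice, where the groups overlapped.

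3 targets encode regulators of transcription. Tsc22d3 (GILZ, which mediates much of the anti-inflammatory action of glucocorticoids, gene 14605, chrX:137074067-137135198, minus strand) was at 175 and 192 CPM in wild type control, 565 and 521 in HS, 329.8 and 403 in vehicle and 222 and 307 in HSP990 mice. R6/2 mice were at 190.5 and 125 CPM in control and 252 and 318 in HS groups, and Hsf1-/- mice at 342 and 348 CPM in control and 566 and 486.5 in HS groups. The HS mice were above the controls in each genotype, with the R6/2 mice lowest after HS. The HS difference was 1.57 ± 0.24 in wild type, 0.85 ± 0.237 in R6/2 and 0.61 ± 0.236 in Hsf1-/- mice. The HSP990 difference was -0.47 ± 0.235, -1.19 ± 0.238 and -0.26 ± 0.235, and it was the smallest of the 9 targets in wild type mice. Its levels thus separated clearly under heat, and the HSP990 mice of the wild type were lower than vehicle mice but above the controls.

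Klf9, a Krüppel-like factor (gene 16601, chr19:23215716-23241401, plus strand), had the smallest standard errors of the 9 targets. It was at 203 and 200.5 CPM in wild type control, 359 and 324 in HS, 348 and 452 in vehicle and 277 and 204 in HSP990 mice. In Hsf1-/- mice it was at 370.4 and 346 CPM in control, 399 and 448.5 in HS, 359.6 and 330.1 in vehicle and 280.3 and 297.5 in HSP990 groups. Wild type HS mice therefore ended where untreated Hsf1-/- mice already were. The HS difference was 0.76 ± 0.181 in wild type, 0.43 ± 0.18 in R6/2 and 0.24 ± 0.18 in Hsf1-/- mice, and the HSP990 difference -0.74 ± 0.181, -0.44 ± 0.18 and -0.26 ± 0.18. Zbtb16, the zinc finger repressor PLZF (gene 235320, chr9:48462416-48644050, minus strand), was with Sgk1 1 of the 2 targets whose HS difference was largest in R6/2 mice, 1.25 ± 0.386, from 125 and 75.4 CPM in control to 218 and 259.8 CPM in HS mice. Wild type mice were at 191 and 207 CPM in control, 316 and 281 in HS, 299.5 and 528 in vehicle and 99 and 254 in HSP990 mice, so that both vehicle mice were above the lower of the HS mice. The wild type value was 0.58 ± 0.382 and that of Hsf1-/- mice 0.38 ± 0.381. After HSP990 Zbtb16 was lower by 1.23, 1.64 and 0.54 on the log2 scale in the same order of wild type, R6/2 and Hsf1-/- mice.

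3 targets act in growth and stress signalling. Ddit4 (REDD1, an inhibitor of the growth-promoting kinase complex mTORC1, gene 74747, chr10:59412423-59414518, minus strand) showed the largest HS difference of all members. It was at 8.14 and 10.9 CPM in wild type control and at 505 and 492 CPM in HS mice, a 52.3-fold difference (log2 5.71 ± 0.969). In R6/2 mice it was at 98.1 and 14.7 CPM in control and 319.6 and 273 CPM in HS groups, and in Hsf1-/- mice at 29.5 and 46.6 CPM in control and 172 and 292 CPM in HS groups. The folds were 5.24 and 6.1, and both genotypes started from higher control levels and ended at lower HS levels than wild type mice. In the drug experiment Ddit4 was at 16.4 and 31 CPM in wild type vehicle and 3.94 and 5.81 CPM in HSP990 mice, at 50.1 and 281 CPM in R6/2 vehicle and 4.99 and 7.09 CPM in HSP990 mice, and at 41.2 and 8.59 CPM in Hsf1-/- vehicle and 5.67 and 13.5 CPM in HSP990 mice. The vehicle levels thus spanned a wide range, whereas all 6 HSP990 mice were between 3.94 and 13.5 CPM.

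Sgk1, a kinase that controls ion transport and muscle mass (gene 20393, chr10:21601990-21719709, plus strand), was set apart by R6/2 mice. It was at 87.5 and 78.2 CPM in wild type control, 192 and 138 in HS, 166 and 164 in vehicle and 69.9 and 52.4 in HSP990 mice. R6/2 mice were at 34.7 and 42.2 CPM in control, 105 and 79.8 in HS, 39.7 and 53.1 in vehicle and 30.6 and 20.4 in HSP990 groups, below the wild type mice of the same treatment in each case. Hsf1-/- control mice were at 152 and 132 CPM and HS mice at 123 and 183 CPM, so that here the HS mice overlapped the controls (0.11 ± 0.291). Wild type and R6/2 mice had HS differences of 0.99 ± 0.294 and 1.26 ± 0.296. After HSP990 Sgk1 was lower by 1.43, 0.86 and 0.78 on the log2 scale in wild type, R6/2 and Hsf1-/- mice.

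Map3k6 encodes a kinase of the apoptosis signal-regulating family (gene 53608, chr4:132796733-132808844, plus strand). It was at 5.35 and 6.75 CPM in wild type control and 56.4 and 66.1 CPM in HS mice, and HS mice of the other genotypes were at 63.4 and 59.3 CPM (R6/2) and 55.1 and 47.3 CPM (Hsf1-/-). Controls were at 27.1 and 6.33 CPM in R6/2 and 14.7 and 10.7 CPM in Hsf1-/- mice, and the folds were 10.1, 3.66 and 4.03. All 6 HS mice were thus within 47.3 to 66.1 CPM, a narrow range across genotypes like that of Fkbp5. HSP990 mice were at 2 and 3.29 CPM in wild type, 1.91 and 2.11 in R6/2 and 5.08 and 3.59 in Hsf1-/- groups, which was 8.94-fold, 21.3-fold and 4.31-fold below vehicle.

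Arrdc2 encodes an arrestin domain protein (gene 70807, chr8:73359054-73363619, minus strand). It was at 40.6 and 35.7 CPM in wild type control, 478 and 391 in HS, 78.8 and 284 in vehicle and 6.59 and 7.92 in HSP990 mice, the largest HSP990 difference of the wild type (24.9-fold). R6/2 mice were at 140.5 and 40.4 CPM in control, 178 and 225 in HS, 96.2 and 237 in vehicle and 14.8 and 12.2 in HSP990 groups. Hsf1-/- mice were at 95.3 and 48.3 CPM in control, 330.4 and 364 in HS, 209.8 and 51.2 in vehicle and 19.9 and 27.6 in HSP990 groups. Its order after HSP990, with wild type lowest and Hsf1-/- highest and no overlap between genotypes, was not shared by Ddit4, where the genotypes overlapped.

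Glul encodes glutamine synthetase, which makes the glutamine that muscle releases (gene 14645, chr1:155747074-155756853, plus strand). It was at 722 and 769 CPM in wild type control, 1848 and 1599 in HS, 809 and 1878 in vehicle and 356 and 493 in HSP990 mice. R6/2 mice were at 871 and 453 CPM in control and 732 and 918.5 in HS groups, and Hsf1-/- mice at 1480 and 926 CPM in control and 1299 and 1342 in HS groups. Control and HS levels thus overlapped in both, with differences of 0.32 ± 0.36 and 0.13 ± 0.36 against 1.21 ± 0.365 in wild type. After HSP990 Glul was lower by 1.66, 1.58 and 1.03 on the log2 scale, without overlap in any genotype. Other genes of the annotation overlap Glul on both strands, so reads of its locus may be split differently by other counting rules. Per kilobase of exon, Glul (224 ± 9.95 CPM per kb, mean ± SD, n = 2) was the highest member in wild type control mice, ahead of Klf9 (61.8 ± 0.573), Tsc22d3 (42.3 ± 2.76), Zbtb16 (39 ± 2.25) and Nr3c1 (29.2 ± 0.969), and Ddit4 (5.65 ± 1.16) and Map3k6 (1.31 ± 0.216) were the lowest. After HS the level of Ddit4 per kilobase (296 ± 5.58) was above that of every member but Glul (518 ± 53).

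**Figure D2:**
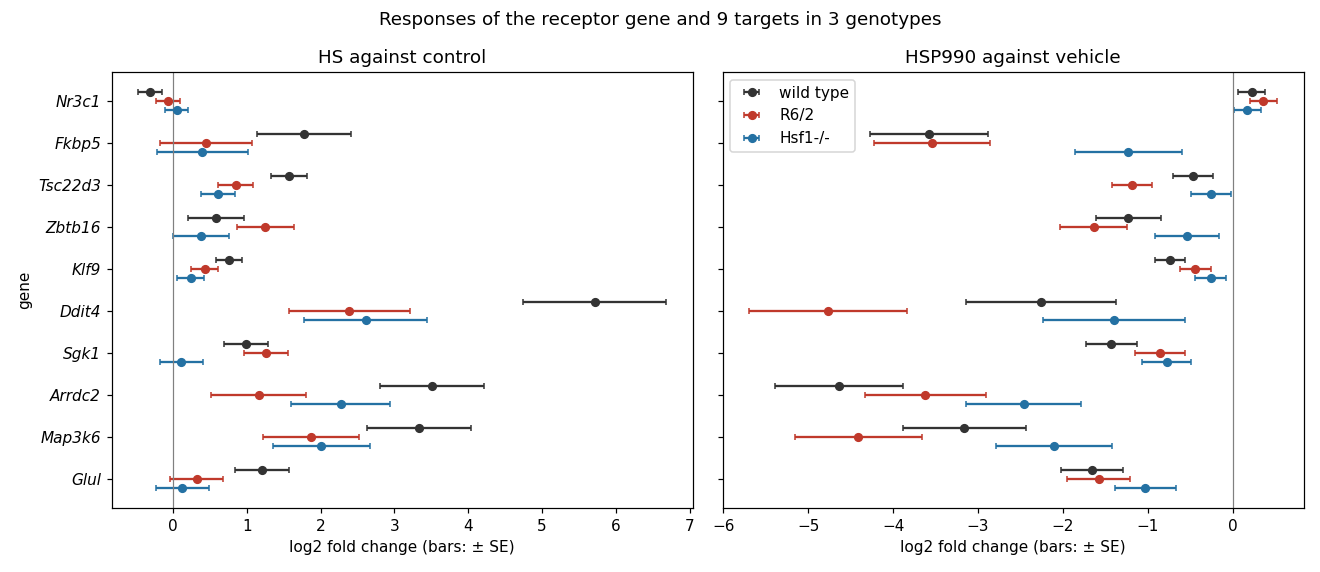
Log2 fold change of Nr3c1 and the 9 targets after HS against control (left) and after HSP990 against vehicle (right), with wild type in black, R6/2 in red, Hsf1-/- in blue and bars of ± SE. All targets lie right of 0 after HS and left of 0 after HSP990, Ddit4 with 5.71 after HS in wild type mice farthest to the right, while Nr3c1 stays within -0.31 to 0.36.

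Whether the genotypes responded differently was tested as the difference between 2 responses. No member passed at an adjusted p below 0.05 (edgeR), neither for HS in R6/2 or Hsf1-/- mice nor for HSP990, and few genes of the whole table did (0.0727%, 0.16%, 0% and 0.422% in the order HS in R6/2, HS in Hsf1-/-, HSP990 in R6/2 and HSP990 in Hsf1-/- mice). DESeq2 on the same 24 libraries also called 0 members in each of the 4 comparisons. At an unadjusted p below 0.05 there were 3, 3, 1 and 2 members, where 4.86%, 3.72%, 7.13% and 6.89% of all genes were at this level. Since the members were chosen for a strong response, and wild type mice are where it was strongest after HS, differences towards a weaker response elsewhere are favoured by the choice.

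The 3 members with a smaller HS response in R6/2 mice at this level were Ddit4 (-3.32, 95% interval -5.76 to -0.88), Arrdc2 (-2.36, interval -4.29 to -0.42) and Tsc22d3 (-0.71, interval -1.42 to -0.01). In Hsf1-/- mice they were Ddit4 (-3.1, interval -5.54 to -0.66), Tsc22d3 (-0.96, interval -1.66 to -0.25) and Sgk1 (-0.88, interval -1.75 to -0.01), and all 9 targets had a smaller HS difference than in wild type mice. With only the 8 libraries of this comparison in the fit, Ddit4 and Tsc22d3 passed (adjusted p of 0.014 and 0.038, edgeR), where 0.32% of all genes did. The fit of all libraries and DESeq2 called neither. The choice of the members favours a smaller response here, so nothing is read from these calls. For HSP990 the R6/2 and wild type responses differed by -2.51 to 1.01 over the targets with a median of 0.04, the unadjusted level being reached by Tsc22d3 (-0.72). In Hsf1-/- mice the HSP990 difference was smaller than in wild type mice for all 9 targets, with a median of 0.69 between them, and Fkbp5 (2.35, interval 0.46 to 4.25) and Arrdc2 (2.18, interval 0.19 to 4.16) reached the unadjusted level. These intervals leave room for differences from near 0 to several log2 units, so that similar responses are not shown either.

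The mice that had received neither HS nor HSP990 also differed, and the same control and vehicle mice enter both these differences and the responses. The mean of log2(CPM + 0.5) over the 9 targets was 6.28 and 6.37 in wild type control mice, 7.43 and 7.13 in Hsf1-/- control mice and 7.21 and 6.03 in R6/2 control mice. After HS it was 8.53 and 8.39 in wild type, 8.19 and 8.33 in Hsf1-/- and 7.85 and 7.93 in R6/2 mice. Hsf1-/- mice were thus above wild type mice before HS and below them after it. Low wild type controls are favoured by the choice, and sex and age also differ between these groups, so nothing is read from this change. Of the R6/2 controls, 1 was at the level of Hsf1-/- controls while the other was below both wild type controls.

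In vehicle mice the same mean was 6.96 and 7.96 in wild type, 6.95 and 7.83 in R6/2 and 7.35 and 7.15 in Hsf1-/- mice, so that replicate 2 was well above replicate 1 in the wild type and R6/2 groups and not in Hsf1-/- mice. HSP990 mice were at 5.33 and 5.6 in wild type, 5.07 and 5.12 in R6/2 and 6.19 and 6.32 in Hsf1-/- mice. The HSP990 mice of the 3 genotypes did not overlap each other, with R6/2 lowest and Hsf1-/- highest.

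**Figure D3:**
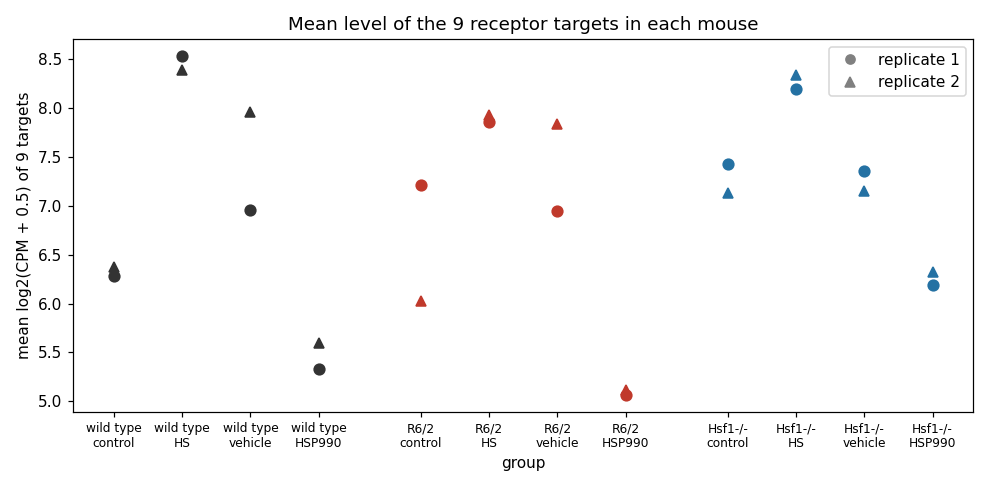
Mean of log2(CPM + 0.5) over the 9 targets in each of the 24 mice, with 2 mice per group drawn as a circle (replicate 1) and a triangle (replicate 2) and 1 colour per genotype. HS mice lie between 7.85 and 8.53 and HSP990 mice between 5.07 and 6.32, while the wild type and R6/2 vehicle pairs and the R6/2 control pair lie far apart, at 6.96 and 7.96, 6.95 and 7.83 and 7.21 and 6.03.

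All 9 targets were higher in Hsf1-/- than in wild type control mice without overlap, where 25.5% of all genes were. The wild type controls are the baseline of the HS rise used to choose the targets, so low levels in them are favoured and nothing is read from this count. The median difference of the targets was 0.91 (log2), with a range from 0.69 (Glul) to 1.99 (Ddit4), and that of Klf9 was 0.83 ± 0.181. These wild type mice had no more than trace reads of Y-linked genes and were 12 weeks old, and the Hsf1-/- mice had them and were 10 weeks old, so that genotype, sex and age cannot be told apart here. In vehicle mice, where both genotypes had Y-linked reads and ages were 8 and 12 weeks, 0 members passed, with differences of -0.48 (Arrdc2) to 0.12 (Tsc22d3) and adjusted p of 0.76 to 0.99, beside 0.0872% of all genes called. There, 0 members and 9.15% of all genes had an unadjusted p below 0.05, and DESeq2 called 0 members.

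Of the 10 members, only Sgk1 passed in R6/2 against wild type control mice, and only Sgk1 and Ddit4 in vehicle mice. This is about the share of all genes that passed, given next, so nothing particular to the members is read from it. The same control and vehicle mice also enter the responses behind the choice. Sgk1 was lower by 1.11 on the log2 scale in control mice (SE 0.296, adjusted p = 0.022) and by 1.83 in vehicle mice (SE 0.3, adjusted p = 0.00054), where 12.4% and 19.2% of all genes passed (edgeR). The second difference held without any 1 mouse (-2.05 to -1.63, adjusted p up to 0.013), and the first was lost without control replicate 1 of R6/2 (-0.97, adjusted p = 0.22) or without wild type control replicate 1 or 2 (-1.02 and -1.19, adjusted p of 0.12 and 0.069). Ddit4 was higher by 2.81 ± 0.844 in vehicle mice (adjusted p = 0.028) and by 2.56 ± 0.854 in control mice, where it did not pass (adjusted p = 0.06). Without vehicle replicate 2 of R6/2, at 281 CPM, the difference in vehicle mice was 1.08 (adjusted p = 0.44), and it was also lost without vehicle replicate 1 or 2 of wild type (2.42 and 3.34, adjusted p of 0.19 and 0.083), the range over the mice left out being 1.08 to 3.57 with adjusted p of 0.012 to 0.44.

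With library totals in place of TMM, the median difference of all genes moved from 0.01 to 0.55 in control mice and from 0.07 to 0.74 in vehicle mice. On that scale Sgk1 was at -0.57 in control mice (adjusted p = 0.12) and at -1.16 in vehicle mice (adjusted p = 0.003, edgeR), below the median of all genes on either scale. The sign of small differences followed the shift of all genes, for Nr3c1, Tsc22d3 and Glul in control mice and for Tsc22d3, Klf9 and Arrdc2 in vehicle mice. The myofibre marker sums of R6/2 muscle, given above, were also below those of all other mice, and their part in this shift was not tested.

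Vehicle and control mice had both been handled but differed in the procedure, gavage against anaesthesia at a held core temperature. In wild type mice 8 of the 9 targets were higher in vehicle than in control mice without overlap, where 24.2% of all genes were, and the median difference was 1 (log2). Genes chosen for a rise over control mice and a fall from vehicle mice tend to be low in the former and high in the latter, so nothing is read from this count either. The difference of Klf9 was 0.99 ± 0.181 in wild type mice. In R6/2 mice the median difference of the targets was 0.76 and in Hsf1-/- mice -0.05. Sex changed with the procedure in wild type and R6/2 mice, and age did in Hsf1-/- mice (10 weeks in control and 8 weeks in vehicle mice), so that the procedure cannot be told apart from sex in the former or from age in the latter. Whether the genotypes differ in this contrast was not tested.

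**Figure D4:**
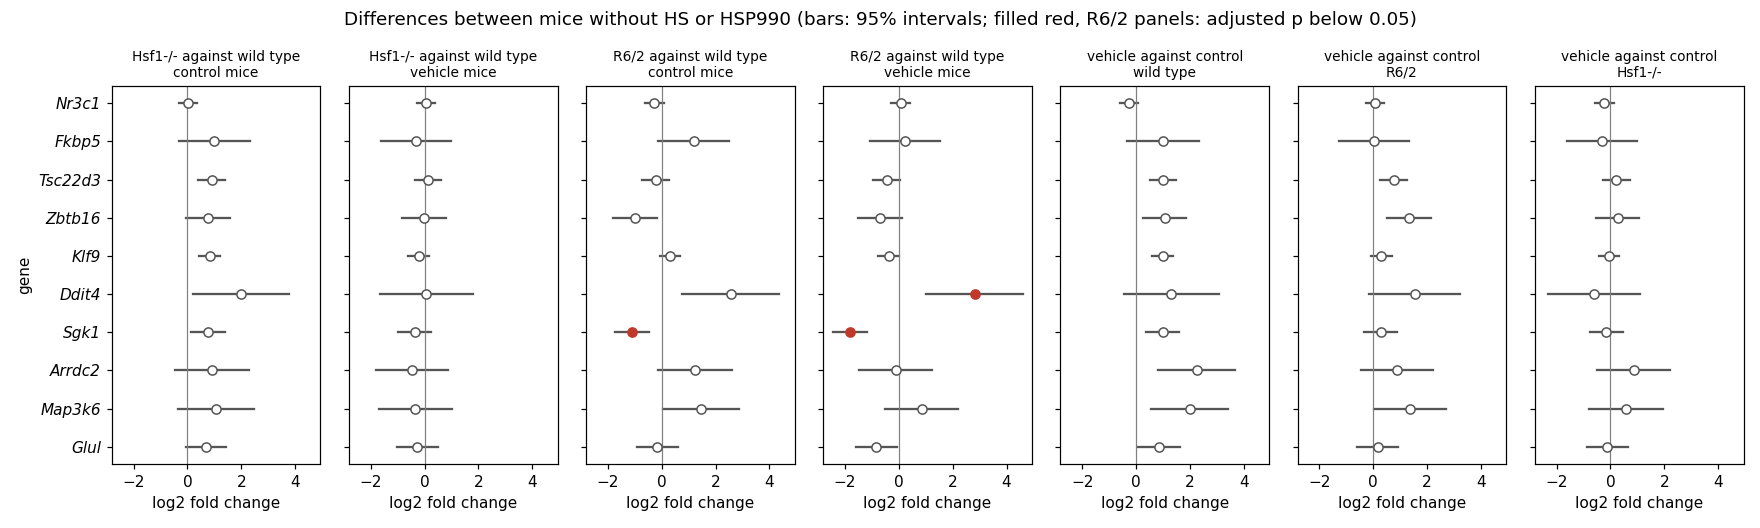
Log2 fold change of Nr3c1 and the 9 targets between mice without HS or HSP990, with bars for 95% intervals and, in the R6/2 comparisons, filled red points for an adjusted p below 0.05. Sgk1 is filled for both R6/2 comparisons and Ddit4 for R6/2 vehicle mice, and Nr3c1 lies between -0.27 and 0.07 throughout.

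A further 28 genes known to be induced by glucocorticoids, listed from general knowledge, were tested in the same fit, chosen with results of these data known. Such a choice can favour counts above the share of all genes, so the counts are not independent evidence. In wild type mice 12 of the 28 rose after HS and 0 fell, where 1.59% of all genes rose, and their median log2 fold change was 1.54. The largest rises were those of the metallothionein genes Mt2 (4.93 ± 1, adjusted p = 0.014) and Mt1 (4.2 ± 0.75, adjusted p = 0.0064), which encode metal-binding stress proteins, of Cebpd, a transcription factor gene (3.55 ± 0.575, adjusted p = 0.0032), of Pdk4, the kinase that shuts off glucose oxidation (2.98 ± 0.448, adjusted p = 0.0017), and of Foxo1, a driver of muscle atrophy genes (2.46 ± 0.536, adjusted p = 0.022), all by edgeR. Mt2, for example, was at 8.05 and 10.3 CPM in control and 231 and 330.4 CPM in HS mice. The count was 8 without HS replicate 1 and fell to 2 without control replicate 1, 4 without control replicate 2 and 7 without HS replicate 2 of wild type.

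In R6/2 and Hsf1-/- mice 0 of the 28 passed after HS, where 0.0436% and 0.00727% of all genes did. Their medians were 0.8 and 0.74, 12 and 14 of them were higher at an unadjusted p below 0.05, where 4.74% and 4.97% of all genes were, and DESeq2 called 5 and 6, where it called 0.923% and 1.17% of all genes. A fit of the 4 libraries compared called 9 in Hsf1-/- mice, where 0.713% of all genes passed. The direct test of the difference from wild type called 0 of the 28 in either genotype, with 5 and 6 lower at an unadjusted p below 0.05. Of all genes 4.86% and 3.72% were at that level in either direction. The lack of calls in these 2 genotypes thus does not show that they differ from wild type.

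HSP990 lowered 8 of the 28 in R6/2 mice, where 0.96% of all genes fell, with a median of -1.02. Mt2 fell by 6.03 (adjusted p = 0.0096), from 10.3 and 105 CPM in vehicle to 0.413 and 1.29 CPM in HSP990 mice, Cebpd by 3.41 (adjusted p = 0.0047), Mt1 by 3.18 (adjusted p = 0.038), Cdkn1a, a brake on the cell cycle, by 2.66 (adjusted p = 0.026) and Nfkbia, which holds back the inflammatory factor NF-kappaB, by 2.2 (adjusted p = 0.0096), on the log2 scale (edgeR). The count was 0 when only the 4 libraries of R6/2 mice were fitted, and 1 without vehicle replicate 2, HSP990 replicate 1 or HSP990 replicate 2 of R6/2. In wild type mice 0 passed (0.407% of all genes fell) and 12 were lower at an unadjusted p below 0.05, as were 4.51% of all genes (median -0.67), with 2 called by DESeq2 (3.94% of all genes), and in Hsf1-/- mice 0 passed (0.0509% of all genes fell) and 2 were lower at that level, as were 4.27% of all genes (median -0.36), with 0 called by DESeq2.

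Between untreated mice some genes of the list differed in R6/2 muscle. Of the 28, 7 rose and 0 fell against wild type in control mice, and 6 rose and 1 fell in vehicle mice, where 5.5% and 8.72% of all genes rose. The summed level of the list overlapped between the genotypes, with 7132 and 3348 CPM in R6/2 against 2863 and 3612 CPM in wild type control mice, and 5072 and 8462 against 6621 and 6630 CPM in vehicle mice. Cdkn1a (2.03 in control, 3.18 in vehicle mice), Cebpd (2.22 and 1.84) and Errfi1 (1.11 and 1.06) passed in both, with adjusted p of 0.0014 to 0.027 (edgeR). Pdk4 was the only gene of the list that passed in Hsf1-/- control mice (2.89 ± 0.446, adjusted p = 0.0069) and in wild type vehicle mice against control (2.64 ± 0.442, adjusted p = 0.018), where 1.93% and 0.24% of all genes passed (edgeR). Pdk4 was at 278 and 378 CPM in wild type control mice and at or above 643 CPM in each of the other 22 mice. These wild type controls enter both differences, sex changes with each of them, and age also differs in the Hsf1-/- comparison. The gene was picked after its values were seen, so nothing is read from its calls.

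**Figure D5:**
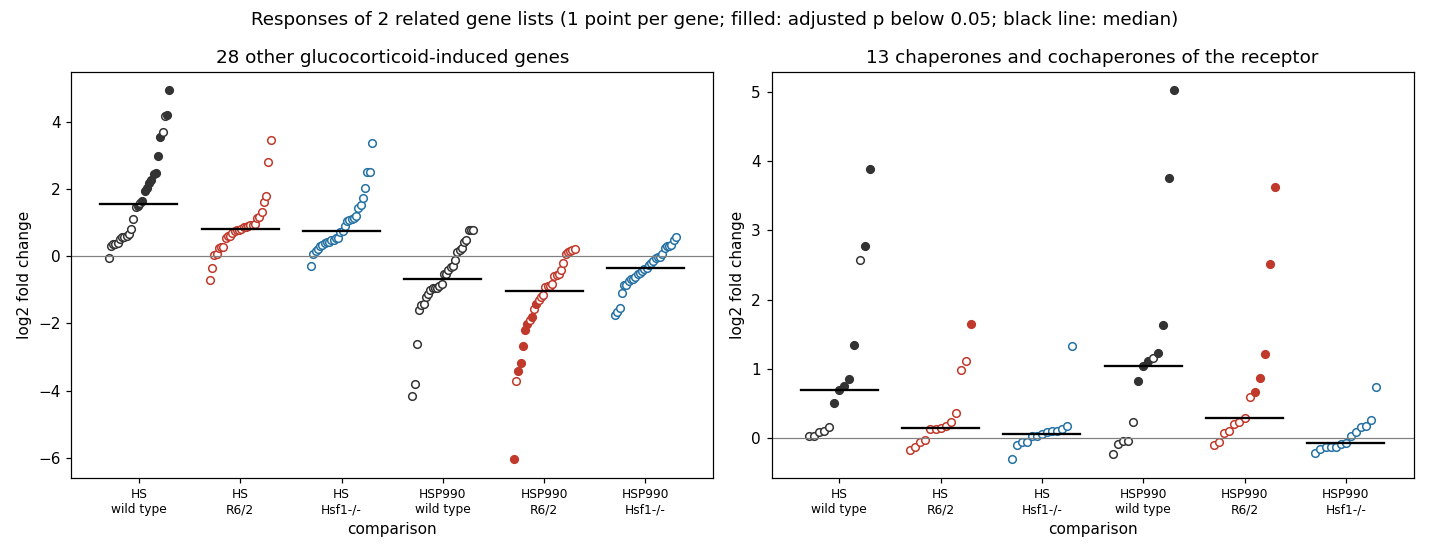
Log2 fold change of each gene of 2 related lists after HS and HSP990 in wild type (black), R6/2 (red) and Hsf1-/- mice (blue), filled where the adjusted p is below 0.05, with the median as a black line. The 28 other glucocorticoid-induced genes (left) have medians of 1.54, 0.8 and 0.74 after HS and -0.67, -1.02 and -0.36 after HSP990, while the 13 chaperones and cochaperones of the receptor (right) have medians of 0.7 and 1.05 in wild type and of 0.06 and -0.07 in Hsf1-/- mice.

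The chaperones that hold the receptor, listed in the same way, rose under both treatments where they passed. Of 13 chaperone and cochaperone genes, 7 rose after HS and 7 after HSP990 in wild type mice, where 1.59% and 1.45% of all genes rose. In R6/2 mice 1 rose after HS and 5 after HSP990 (0.0436% and 0.473% of all genes rose). In Hsf1-/- mice 0 rose after either, with 0 and 1 at an unadjusted p below 0.05. At that level 4.97% of all genes were higher after HS, and the share after HSP990 is not given. The HS count in wild type mice was 3 without either control mouse, when Hsp90ab1, Ptges3, Fkbp4 and St13 did not pass, and 4 without either HS mouse. The 1 gene that rose after HS in R6/2 mice, Hsp90aa1, did not pass without control replicate 2 (1.3, adjusted p = 0.1) or HS replicate 1 of R6/2 (1.62, adjusted p = 0.14). Hsp90aa1, the inducible form of HSP90, was at 10.3 and 11.2 CPM in wild type control and 156 and 164 CPM in HS mice (3.89 ± 0.263, adjusted p = 4e-07). After HSP990 it rose by 5.02 ± 0.275 (adjusted p = 9.8e-09, edgeR). The paper, by contrast, reports from quantitative PCR of the same muscle and time that Hsp90aa1 did not change under either treatment. Why the sequencing counts differ from this was not tested. The cochaperones Dnaja1 (2.78 and 3.75) and Stip1 (1.34 and 1.64) rose in the same way. Several of these responses differed between genotypes in the direct test, 2 after HS in R6/2, 3 after HS in Hsf1-/- and 6 after HSP990 in Hsf1-/- mice, each lower than in wild type mice. Of all genes 0.0727%, 0.16% and 0.422% passed there. Hsp90aa1, Hspa8 and Ptges3 have near-identical copies in the genome, and their counts are uncertain to that extent.

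The supply of hormone inside the tissue and the partners of the receptor were followed as well. Of 4 genes for ligand supply and the related mineralocorticoid receptor (Hsd11b1, which regenerates active hormone, H6pd, Hsd11b2 and Nr3c2) 0 passed in any of the 6 treatment comparisons. Hsd11b1 was at 3.72 to 20.4 CPM over the 24 mice, and its differences after HSP990 were -0.63 in wild type and -0.65 in R6/2 mice. Of these 4, 1, 1 and 0 were higher at an unadjusted p below 0.05 after HS in wild type, R6/2 and Hsf1-/- mice and 0 after HSP990. Of 10 coregulator genes 0 passed under treatment, with 2, 1 and 2 higher at an unadjusted p below 0.05 after HS and 1 lower after HSP990 in wild type mice. In R6/2 against wild type mice 2 coregulator genes rose in control mice, the acetyltransferase gene Crebbp (0.75, adjusted p = 0.047) and Smarca4, a chromatin remodelling ATPase (0.59, adjusted p = 0.0012). In vehicle mice 2 rose, the coactivator gene Ncoa1 (0.59, adjusted p = 0.024) and Smarca4 (0.42, adjusted p = 0.0061), and the corepressor gene Nrip1 fell (-1.2, adjusted p = 0.026), beside the 5.5% and 8.72% of all genes that rose. Of 12 clock genes, which share with the receptor a daily rhythm, 0 passed under treatment, with 2, 1 and 3 higher at an unadjusted p below 0.05 after HS and 0, 2 and 3 after HSP990. Per1, also a clock gene, was counted among the 28 other glucocorticoid-induced genes and not among these 12. It passed in R6/2 mice as lower after HSP990, by -2.42 to -1.43 (log2) when 1 mouse at a time was left out. In R6/2 against wild type control mice 3 of the 12 fell, where 6.94% of all genes did, namely Nr1d1 (-1.97, adjusted p = 0.0018) and Dbp (-1.66, adjusted p = 0.014), genes of clock transcription factors, and Ciart (-2.1, adjusted p = 0.028). In vehicle mice Dbp (-2.06, adjusted p = 0.0022) and Nr1d2 (-0.7, adjusted p = 0.038) fell, where 10.5% of all genes did, and Clock rose (0.64, adjusted p = 0.025). At an unadjusted p below 0.05, 4.74% and 4.97% of all genes were higher after HS in R6/2 and Hsf1-/- mice. After HSP990 in wild type mice 4.51% were lower at that level. For the other counts at that level the share of all genes is not given, so nothing is read from them. Calls by DESeq2 were not counted for the lists of this paragraph or for the chaperones.

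Markers of other cell types were summed for each mouse. The 10 adipocyte markers amounted to 1319 to 2258 CPM in wild type control, 2262 to 2522 in HS, 1019 to 2010 in vehicle and 710.8 to 1316 in HSP990 mice. The vehicle and HSP990 ranges overlapped. In R6/2 mice the ranges were 966.6 to 1456, 1864 to 2218, 1102 to 1477 and 786.3 to 805.3 CPM, and in Hsf1-/- mice 1571 to 1941, 1661 to 1937, 1462 to 2212 and 1229 to 3146 CPM. Of the 10 markers, 9 were lower in HS than in control mice of the wild type and only Plin4 was higher (1.37, adjusted p = 0.023, edgeR), and none of the 10 was at 0 in any mouse. The higher sum after HS in wild type mice thus rested on Plin4 and is not shared by the list. Plin4 was also lower in wild type HSP990 mice (393 and 504.5 CPM) than in vehicle mice (627 and 1207 CPM). The macrophage and leukocyte markers (41.8 to 89.5 CPM), endothelial markers (366 to 666 CPM) and fibroblast markers (618 to 1236 CPM) had 0 calls after HS, the 8 myofibre markers had 0 calls under either treatment, and under the drug 1 gene of these lists was called (Lyz2, 1.07 in wild type mice, adjusted p = 0.034, edgeR). The leukocyte, endothelial and fibroblast sums of wild type vehicle mice were 41.83 to 42.79, 376.5 to 469.1 and 740.7 to 742.7 CPM. After HSP990 they were higher, at 65.06 to 89.51, 581 to 665.8 and 1225 to 1236 CPM. In R6/2 mice only the endothelial sum was higher after HSP990 without overlap, and the leukocyte sum was lower. In Hsf1-/- mice only the endothelial sum was higher without overlap. What part these cells had in the levels of the targets was not tested.

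Over the 24 mice each target followed the mean of the other 8 (standardised log2 levels), with Pearson's r of 0.729 (Sgk1) to 0.892 (Glul). The receptor gene did not (-0.463 with the mean of the 9). This is a description over mice that share groups and treatments. The targets were chosen for the same responses in these mice, which favours likeness among them, so nothing is read from it. Among 11109 genes with a mean of at least 1 CPM, those closest to the mean of the 9 targets were Mn1 (r = 0.935), Lrg1 (0.932), Odf3l2 (0.925), Plin4 (0.909) and S1pr1 (0.893). Plin4 also stands in the adipocyte list, where it makes up much of the sum. It was at 585 and 662 CPM in wild type control, 1666 and 1553 in HS, 627 and 1207 in vehicle and 393 and 504.5 in HSP990 mice, with the same split between the vehicle mice as Fkbp5 and Arrdc2.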

How the data were processed

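The authors sequenced strand-specific paired-end libraries of polyA RNA, mapped them with Bowtie to mm9 and deposited raw counts per gene, not normalized. Their processing notes also name DESeq2, and the counting program and annotation are not given in the sources used here. From these counts, genes reaching 2 counts in 10 or more of the 24 libraries were kept (13754), scaled with TMM and fitted in one edgeR model (version 4.0.16, with limma 3.58.1 under R 4.3.3) that had a term for each of the 12 groups and left 12 residual degrees of freedom. Quasi-likelihood tests were adjusted by Benjamini-Hochberg over all genes within each of 17 contrasts, at 0.05. For single values, 0.333 is the smallest p that an exact permutation of 2 mice and 2 mice allows, so none was used. The members and gene lists were chosen with earlier results of these data known. All members are named. Of the other lists, at most 5 called genes with the largest change in a treatment comparison are named. Errfi1, Per1, Pdk4 between untreated mice, Hsd11b1, the coregulator and clock genes, Lyz2 and Plin4 were picked after their values were seen. Alternatives were RLE factors, library totals, no filter, only the groups compared, a replicate block, DESeq2 1.42.0 and leaving out each mouse. Near-identical copies were searched with minimap2 2.31-r1302. The edgeR fit was tested on simulated data. Replicate libraries differed by more than sampling noise, and not equally between genotypes. The chi-square of the counts per degree of freedom was 25.56 to 35.32 in wild type, 20.25 to 83.08 in Hsf1-/- and 56.59 to 115.5 in R6/2 groups. The p-values of the main fit rest on the spread between the 2 mice of a group, estimated jointly over the 12 groups. They do not rest on the spread of the groups compared alone. Where groups spread unequally, such p-values can be too small for those with more spread, as in R6/2 mice, and too large for the others.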

Additional observations from a re-analysis of the deposited data

Results flagged for a closer look

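No target and not the receptor gene was picked out, since groups of 2 mice are too small for a search for outlying mice and no difference in response between genotypes passed for them. The chaperones of the receptor were picked out because their responses differed between genotypes in a direct test (edgeR). After HS the response of R6/2 mice minus that of wild type mice was -2.24 for Hsp90aa1 and -1.79 for Dnaja1 (adjusted p of 0.0094 for both), and both were lost without R6/2 control replicate 1, R6/2 HS replicate 1 or either wild type control mouse (adjusted p up to 0.091). After HS the response of Hsf1-/- minus wild type mice was -3.79 for Hsp90aa1, -3.08 for Dnaja1 and -1.44 for Stip1. After HSP990 the same difference was -4.28 for Hsp90aa1, -3.5 for Dnaja1, -1.61 for Stip1, -1.26 for Hsp90ab1, -1.14 for St13 and -0.96 for Fkbp4. In Hsf1-/- mice Hsp90aa1 was at 8.2 and 8.65 CPM in control and 10 and 8.07 CPM in HS mice. St13 did not pass without 5 of the 8 mice taken 1 at a time (adjusted p up to 0.11).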

How the results depend on the processing

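Of 23 summary values, RLE factors moved 0, library totals 2, no filter 2, a replicate block 4, DESeq2 7 and only the groups compared 7. No target median and no called gene changed sign, but calls of single genes were lost. Lost calls numbered 5 with library totals, 13 with a replicate block and 18 with only the groups compared. RLE factors, no filter and DESeq2 lost 0. Many were also lost when 1 mouse was left out. With library totals the HS median of the targets in wild type mice was 1.43, and 5 members passed in R6/2 against wild type control mice, where 43.7% of all genes did. With no filter 2 members passed there, where 1615 genes in all did. After HSP990 in wild type mice 2 of the 28 other glucocorticoid-induced genes then passed, where 280 genes in all did. The choice of members favours low control and high vehicle levels. Member calls in Hsf1-/- control mice and in vehicle against control mice are thus listed only to show their dependence on the fit, and nothing else is read from them. With all groups, edgeR called 1 member in Hsf1-/- control and 1 in wild type vehicle against control mice, where 1.93% and 0.24% of all genes passed. With DESeq2 the members called were 3 (R6/2 control, 16.4% of all genes), 2 (Hsf1-/- control, 5.33%), 4 (vehicle against control, wild type, 2.06%) and 1 (vehicle against control, R6/2, 0.574%), and the other genes called were 5 (HS in R6/2), 6 (HS in Hsf1-/-) and 2 (HSP990 in wild type). With only the groups compared, members called were 7 (Hsf1-/- control, 5.57% of all genes), 1 (R6/2 vehicle, 14.3%), 3 (vehicle against control, wild type, 0.923%) and 2 (HS response of Hsf1-/- minus wild type, 0.32%). Other genes called were 9 (HS in Hsf1-/-, 0.713% of all genes), 1 (HSP990 in wild type, 1.15%) and 0 (HSP990 in R6/2, 0.0582%). The cause was not tested.

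Leaving out 1 mouse gave target medians after HS of 1.5 to 1.63 (wild type), 0.58 to 1.47 (R6/2) and 0.19 to 0.62 (Hsf1-/-), and after HSP990 of -2.15 to -1.44, -2.02 to -1.72 and -0.91 to -0.6. The counts that follow come from the same fits, without the shares of all genes. They show only how far calls depend on single mice. Members called were 0 to 3 (R6/2 control), 0 to 0 (Hsf1-/- control), 1 to 2 (R6/2 vehicle) and 0 to 1 (vehicle against control, wild type). Other genes called after HS were 2 to 8, 0 to 1 and 0 to 1, and after HSP990 0 to 3, 1 to 8 and 0 to 0.

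Replicate numbers did not pair the mice: deviations from the group means correlated at -0.2 to 0.24 over 6 pairs of groups. With the replicate number as a block, 0 members passed in Hsf1-/- control mice, 1 in R6/2 vehicle mice and 0 in wild type vehicle against control mice. Of all genes 0.334%, 15.8% and 0.218% did. After HSP990 in R6/2 mice 5 other genes passed, where 1.06% of all genes did. With 2 mice per group, differences smaller than the intervals given were not detectable.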
